A study of Mus musculus with 4 samples.

Results

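The genes described here are 33 genes of sterol handling, all of which were present among the 16798 genes of the count table. They form a list of cholesterol synthesis, efflux and storage genes chosen by name and function, with earlier results of these data known. By role they were 17 enzymes of cholesterol synthesis, 5 genes of sterol sensing, 5 genes of efflux and its nuclear receptors, 4 genes of lysosomal release and transfer of cholesterol, and 2 genes of cholesterol storage. The last 3 roles, with 11 genes, are called efflux, release and storage where they are set against synthesis. Lipa, Npc1, Npc2 and Stard4 form the role of lysosomal release and transfer, with Stard4 placed there for transfer. They are called lysosomal genes for short.

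Cells make cholesterol from acetyl-CoA through the mevalonate pathway, whose enzymes are switched on together by the transcription factor SREBP2 when membrane cholesterol is low. When cholesterol is plentiful, INSIG proteins hold SCAP and the SREBP proteins in the endoplasmic reticulum, excess sterol is esterified into lipid droplets, and oxysterols activate the liver X receptors, which induce the exporters ABCA1 and ABCG1. In the brain, microglia take up cholesterol with myelin, lipoproteins and cell debris, free it in the lysosome, and either export it on lipoprotein particles or store it.

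The cells were CD45+ immune cells sorted from the cortex of 18-month-old mice and profiled by single-cell RNA sequencing. The 10x Genomics 3′ kit was used, in which each captured molecule is tagged near its 3′ end with a unique molecular identifier (UMI) and counted once. ADAM mice carried the APP/PS1 transgenes, under which amyloid is deposited in the brain, and lacked both Axl and Mertk (Axl-/- Mertk-/-), receptor tyrosine kinases with which phagocytes bind dying cells. AD mice were age-matched and carried APP/PS1 alone, so amyloid-forming transgenes were common to both genotypes and no mice without them are described here. Each genotype had 2 libraries (ADAM 1 and ADAM 2, and AD 1 and AD 2), each from 2 pooled cortices, called biological replicates in the labels. The Axl and Mertk deletions are not described in the labels as limited to one cell type, so any Axl- or Mertk-expressing cell of these mice could be affected.

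The authors' annotation put 14628 of 15451 cells into 1 of 9 classes, and 9077 microglia into 7 numbered states. Microglia yielded 14704015 UMIs in ADAM 1 and 13010636 in ADAM 2, against 8580653 in AD 1 and 21704070 in AD 2. In microglia, Axl stood at 5.37 and 7.22 CPM (UMIs scaled to library size) in ADAM 1 and ADAM 2, against 104 and 67.1 CPM in AD 1 and AD 2, while Mertk stood at 246 and 274 CPM in ADAM and 274 and 296 CPM in AD. No source used here says which part of Mertk was deleted, so 3′ counts do not check that label. Sums over marker genes are CPM without further scaling. All 8 microglia markers (Tmem119 and P2ry12 among them) were detected in state 5, where they summed to 12228 and 10097 CPM in ADAM and 12994 and 10906 CPM in AD, and in state 0, with 19040 and 16170 CPM in ADAM and 21339 and 18439 CPM in AD. The 8 markers of disease-associated microglia, such as Cst7, Spp1 and Itgax, summed to between 15561 and 23254 CPM in state 5 and between 2288 and 2633 CPM in state 0. ADAM 2 carried more neutrophil transcripts than the other libraries, with 707 CPM over 9 neutrophil markers in state 5 against at most 26.5 CPM elsewhere in that state, and its values are given separately throughout. Across libraries, 24 cell barcodes occurred more than once, in 48 cells. All values below are sums over the cells of a class or state in 1 library, in which fewer cells of a kind and less RNA per cell cannot be told apart.

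State 5 held the sterol genes at higher levels than state 0, the most populous microglia state, for synthesis, sensing, lysosomal release and storage, whereas the exporters Abca1 and Abcg1 were at lower levels. This was so in ADAM and AD libraries alike. The states were defined by the authors from these cells, so this contrast is a description and was not tested. Levels in this and the following paragraphs are CPM on 1 scale common to all classes and states, set by trimmed mean of M values (TMM) scaling, and ratios add 1 CPM to both sides. Of the 28 members that averaged at least 5 CPM over both states, 21 were higher in state 5 than in state 0 in 4 of 4 libraries, as were 31.9% of all genes at that level, and 18 were higher by over 1.5-fold, as were 14.2% of all genes. In the other direction, 3 members were lower in state 5 in every library, against 35.2% of all genes, and 1 of them by over 1.5-fold, against 12.4% of all genes. High levels were not particular to state 5. In state 6 (3 libraries), synthesis, sensing, lysosomal and storage genes summed to 495, 154, 2495 and 273 CPM on average. In state 5 these means were 454, 158, 2798 and 312 CPM. Lysosomal genes averaged 2836 CPM in state 3, and storage genes 278 CPM in state 4. State 1 (3 libraries) averaged 227 CPM for synthesis, against 238 CPM in state 0.

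Among the synthesis enzymes, Msmo1, the sterol methyl oxidase that removes methyl groups from lanosterol-derived intermediates, stood at 63.4, 60.9, 72.2 and 76.9 CPM in state 5 and at 26.0, 31.6, 26.4 and 24.8 CPM in state 0, in ADAM 1, ADAM 2, AD 1 and AD 2 in that order. Every library of state 5 was above every library of state 0, with a ratio of 2.46. The ratio was 2.99 for Cyp51, which demethylates lanosterol, 2.60 for Idi1, which isomerizes isopentenyl diphosphate, 2.28 for Fdft1, the squalene synthase, and 1.76 for Hmgcs1, which makes HMG-CoA at the entry of the pathway. Over the 17 synthesis enzymes together, the summed level was 430, 424, 475 and 487 CPM in state 5 in that library order, and 243, 237, 237 and 234 CPM in state 0. The ratio of these sums ranged from 1.77 to 2.08 over the 4 libraries. Ebp, the sterol isomerase and a highly counted member of the list, differed little between the states, at 89.3 to 105 CPM in state 5 and 82.6 to 89.0 CPM in state 0.

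Among the sensing genes, Insig1, itself an SREBP target, was at 27.7, 32.0, 50.4 and 35.3 CPM in state 5 in ADAM 1, ADAM 2, AD 1 and AD 2, and at 6.95, 10.1, 7.08 and 8.62 CPM in state 0. The states did not overlap, and the ratio was 4.06. Srebf2, which encodes SREBP2, was 2.28 times as high in state 5 as in state 0, and Srebf1, which encodes the relative that mainly drives fatty acid genes, 1.63 times. Scap, the escort protein, ran the other way at a ratio of 0.81, and Insig2 stood at 36.6 to 46.2 CPM in state 5 and 42.4 to 48.0 CPM in state 0.

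The efflux group did not move as 1 block. Abca1, which loads cholesterol onto lipid-poor apolipoproteins, was at 72.6, 71.8, 74.3 and 89.2 CPM in state 5 and at 184, 185, 168 and 187 CPM in state 0, in ADAM 1, ADAM 2, AD 1 and AD 2. It was the 1 member lower in state 5 by over 1.5-fold, at a ratio of 0.43, and the libraries of the states did not overlap. Abcg1, the exporter to larger lipoprotein particles, had a ratio of 0.84, and Nr1h2, which encodes liver X receptor beta, was at 36.0 to 43.8 CPM in state 5 and 31.9 to 39.9 CPM in state 0. Ch25h, the hydroxylase that makes 25-hydroxycholesterol, an oxysterol that signals cholesterol excess, was placed in this role because its product is a liver X receptor ligand. It was at 59.9, 79.6, 111 and 86.0 CPM in state 5 and at 1.39, 1.86, 1.42 and 1.76 CPM in state 0, in the same library order, the highest ratio of the list at 32.7. Nr1h3, which encodes liver X receptor alpha, was below 2.3 CPM in every library of both states.

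Storage and lysosomal genes followed the synthesis enzymes in direction. Plin2, a coat protein of lipid droplets, was at 91.9, 98.1, 98.8 and 86.7 CPM in state 5 and at 22.2, 17.8, 18.9 and 16.1 CPM in state 0, in ADAM 1, ADAM 2, AD 1 and AD 2, a ratio of 4.81. Soat1, which esterifies cholesterol for storage, was at 198, 223, 231 and 220 CPM in state 5 and at 78.5, 89.5, 75.6 and 66.2 CPM in state 0, a ratio of 2.79. The states did not overlap for either gene. Npc2, the lysosomal protein that hands cholesterol to the membrane, had a ratio of 2.46, and Lipa, the acid lipase that hydrolyses cholesteryl esters in the lysosome, a ratio of 2.18, while Npc1, the membrane partner of Npc2, was at 90.7 to 115 CPM in state 5 and 91.00 to 98.97 CPM in state 0.

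**Figure D1:**
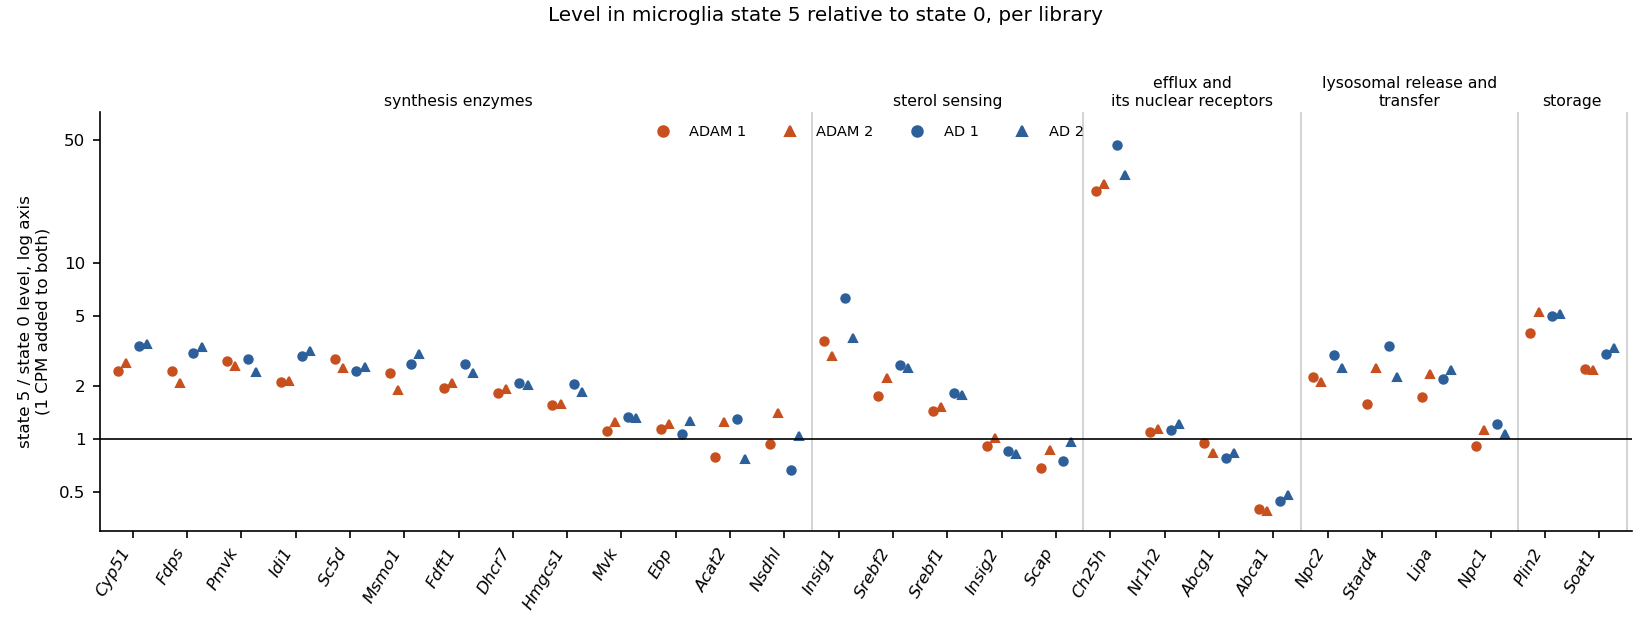
Level in microglia state 5 relative to state 0 (log axis, 1 CPM added to both) for the 28 sterol genes that averaged at least 5 CPM over both states, one point per library, genes grouped by role. Ch25h is the highest at 32.7, Plin2 and Insig1 follow at 4.81 and 4.06, and Abca1 is the lowest at 0.43.

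Set side by side, the median ratio of state 5 over state 0 was 2.28 for synthesis enzymes, 1.63 for sensing, 0.99 for efflux and its receptors, 2.27 for lysosomal genes and 3.80 for storage. The summed level of synthesis enzymes was 1.91 times as high in state 5 as in state 0 on average over the 4 libraries, against 2.14 times for efflux, release and storage together. Npc2 supplied most UMIs of that second sum, and without it the ratio was 1.52, ranging from 1.34 to 1.66, below the range of synthesis. Efflux genes alone had a ratio of 0.91, and storage genes 3.27. TMM scaling raised every log2 ratio of state 5 over state 0 by 0.31 on average (0.25 to 0.40 by library). Relative to plain library size, 18 members were higher and 6 lower in state 5 in every library, and efflux genes summed to a ratio of 0.73. Ebp and Mvk were then no longer higher in every library. Nr1h2 reversed, from higher in 4 libraries with TMM to lower in 4 without it. Npc1 went from higher in 3 libraries to lower in 4, and Insig2 from lower in 3 to lower in 4.

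**Figure D2:**
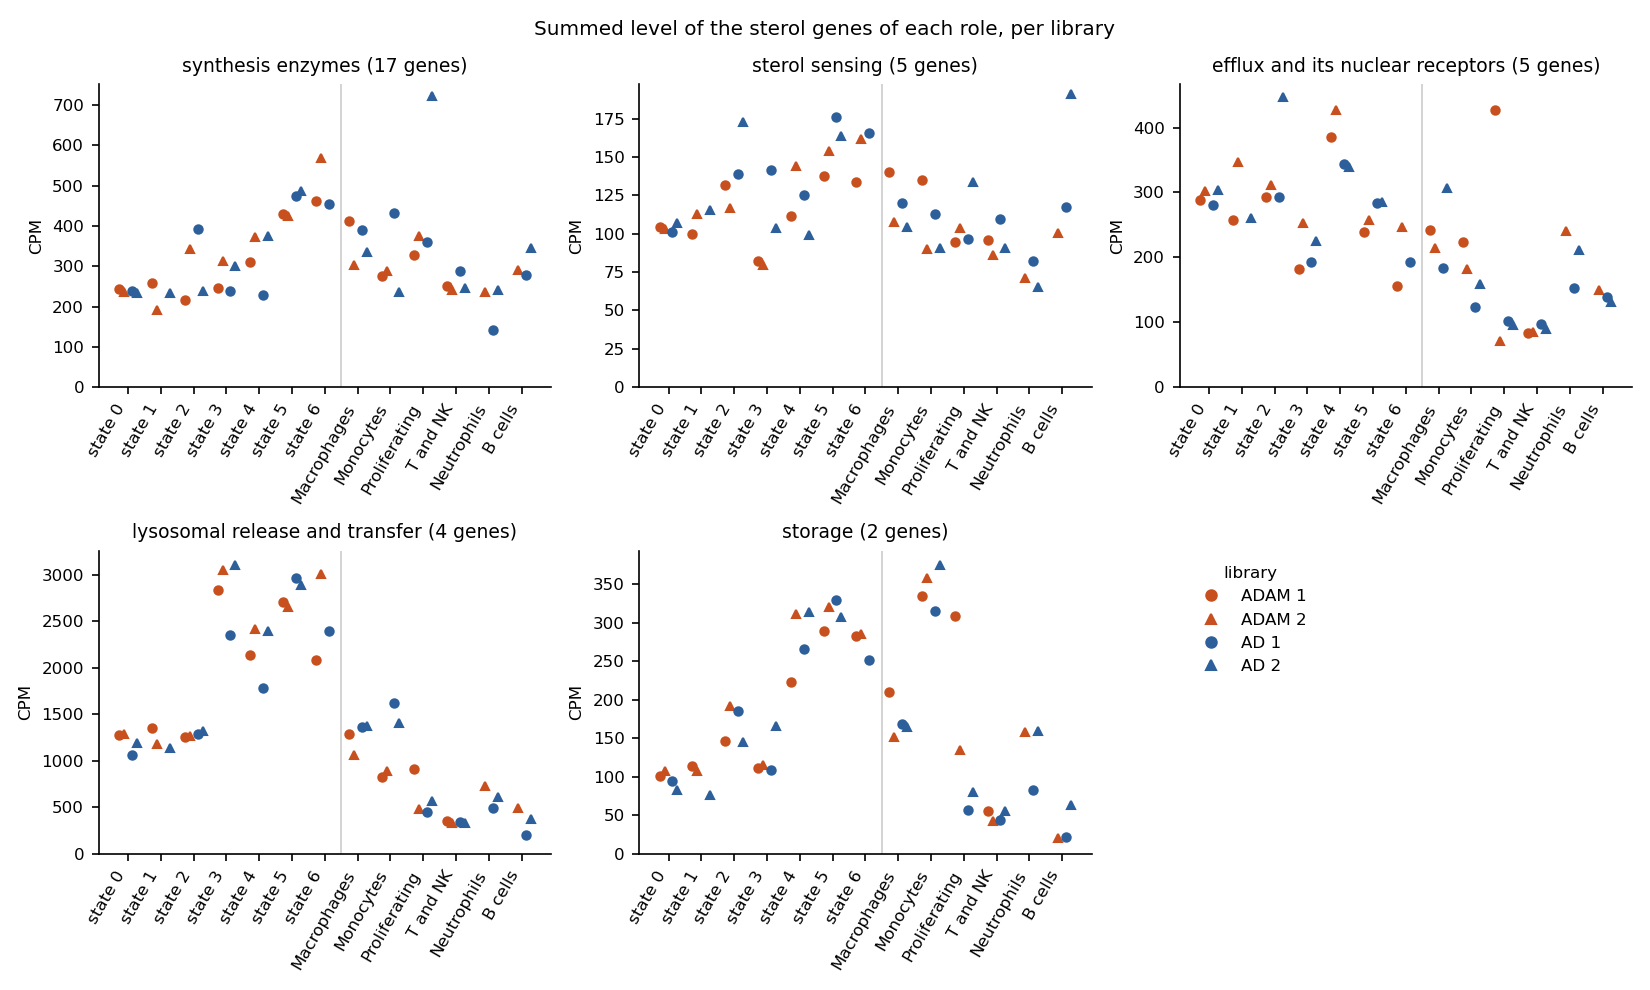
Summed CPM (common scale, linear axes from 0) of the genes of each role in each microglia state and cell class, one point per library with at least 20 cells, ADAM in orange and AD in blue. In state 5 the synthesis sum lies between 424 and 487 CPM, against 234 to 243 CPM in state 0. The efflux sums of these states overlap on this scale, with Abca1 lower and Ch25h higher in state 5.

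Part of a level can come from free RNA in droplets, and cells of state 5 held more UMIs than those of state 0. To compare at 1 depth, each cell was thinned to 2000 UMIs and cells below that depth were left out (13 to 29 cells per library in state 5, 10 to 50 in state 0, and 70 to 161 among T and NK cells). Ch25h then had a UMI in 8.74%, 12.3%, 15.8% and 10.5% of state 5 cells in ADAM 1, ADAM 2, AD 1 and AD 2, in 0.082% to 0.493% of state 0 cells, and in at most 0.165% of T and NK cells, which served as a class not known for it. Without thinning the share in state 5 was 23.1% to 34.7%. Abca1 had a UMI in 8.41%, 9.81%, 11.3% and 12.99% of thinned state 5 cells, in 27.5% to 31.3% of state 0 cells and in 0.659% to 1.37% of T and NK cells. Both orders thus held at equal depth, and neither share in microglia was near that of T and NK cells except for Ch25h in state 0. The median UMIs per cell before thinning were 6201 to 7883 in state 5, 4145 to 5905 in state 0, and 2926 to 3548 in T and NK cells.

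Across the other microglia states and classes, the highest level was rarely set apart: for 30 of the 33 members, the libraries of the highest set overlapped those of the second. The exceptions were Plin2, with 180 CPM on average in monocytes and 93.9 CPM in state 4, Srebf2, with 70.7 CPM in B cells and 48.9 CPM in macrophages, and Mvd, an enzyme that decarboxylates mevalonate diphosphate, with 18.4 CPM in monocytes. Ch25h averaged 84.2 CPM in state 5, 79.4 CPM in state 6 and 66.0 CPM in state 4, and had no UMI in monocytes or B cells. State 2 cells had a median of 809 to 887 UMIs, and their sums held 169838 CPM of haemoglobin genes in ADAM 2 and 0 in the other libraries, 61826 CPM of choroid plexus markers in AD 1 and at most 1621 CPM in the others, and 4041 CPM of neutrophil markers in ADAM 2. The part of these transcripts in the state 2 levels was not tested. Abca1 averaged 205 CPM in state 2 and 181 CPM in state 0, which overlapped, and 23.3 CPM in state 6 and 5.52 CPM in T and NK cells. Soat1 averaged 218 CPM in state 5 and 212 CPM in state 6, and Npc2 2676 CPM in state 3 and 2513 CPM in state 5, with 287 CPM in T and NK cells. Lipa was highest in state 4 at 259 CPM. Nr1h3 was at 85.5, 26.6, 14.1 and 6.71 CPM in monocytes of ADAM 1, ADAM 2, AD 1 and AD 2, and at 160, 5.14, 0 and 3.26 CPM in proliferating cells, so 1 library decides its mean in proliferating cells. Of the 33 members, 18 had their highest mean in a microglia state, 7 in proliferating cells and 8 in another class.

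**Figure D3:**
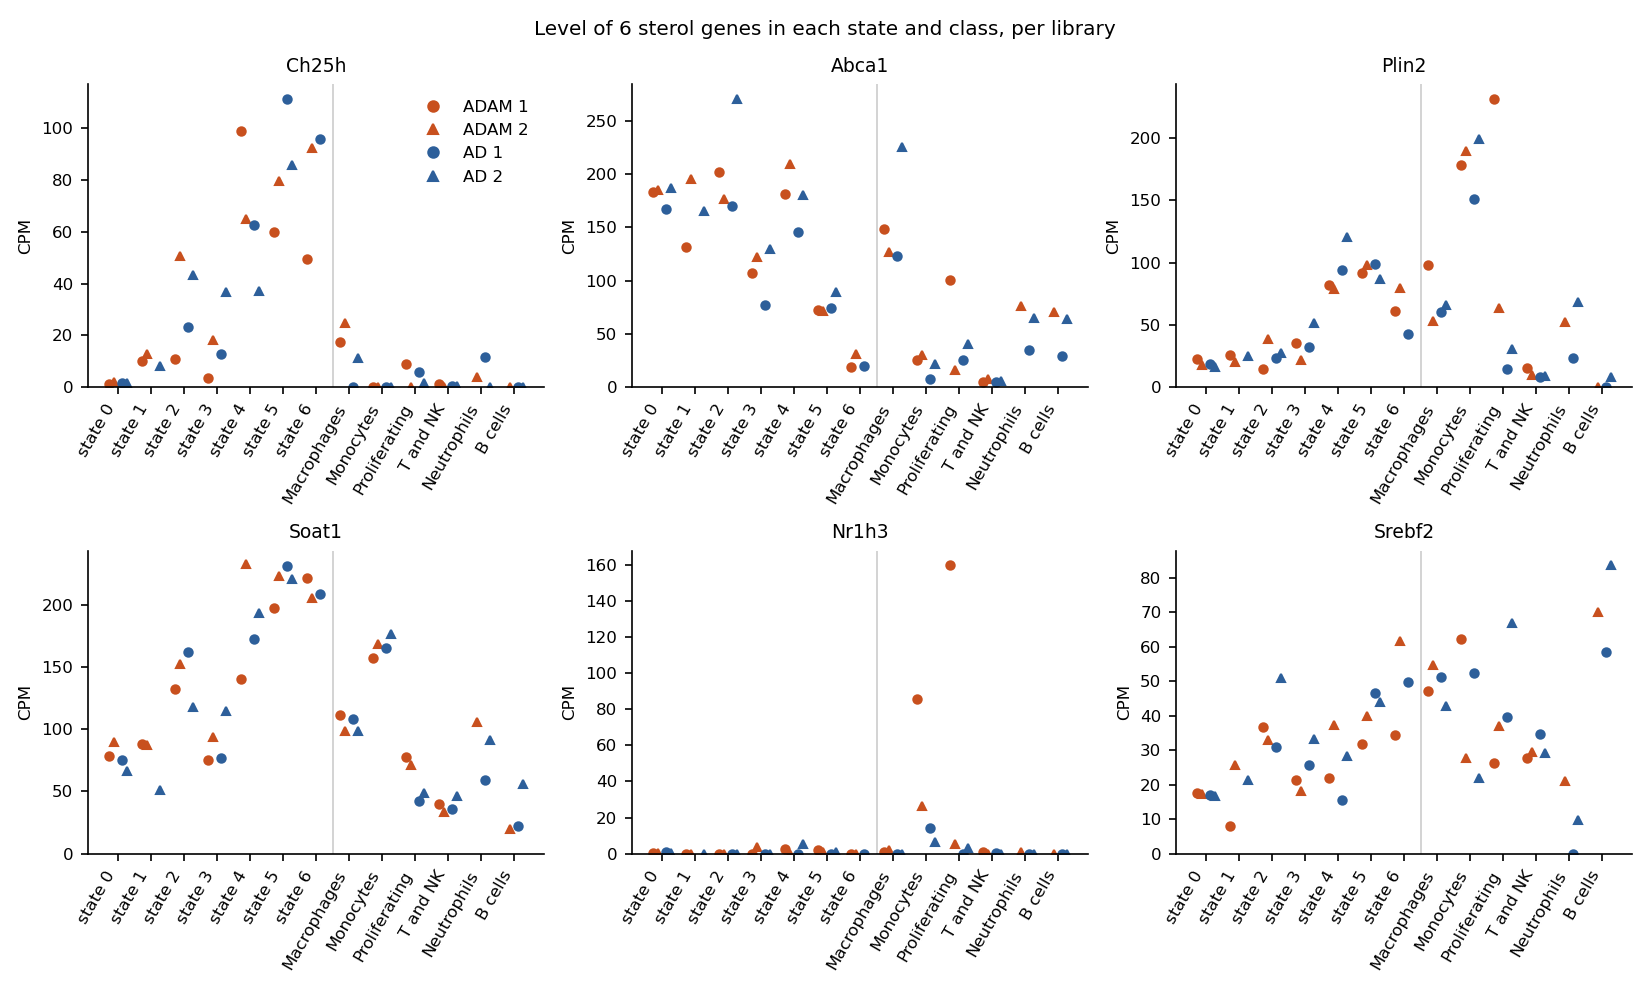
CPM (common scale, linear axes from 0) of Ch25h, Abca1, Plin2, Soat1, Nr1h3 and Srebf2 in each microglia state and cell class, one point per library with at least 20 cells, ADAM in orange and AD in blue. Ch25h is highest in states 4, 5 and 6, Abca1 is lower in states 5 and 6 than in state 0, Plin2 is high in monocytes, and Nr1h3 is near 0 outside monocytes and 1 library of proliferating cells.

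Over all microglia, the sterol genes did not separate the genotypes. With edgeR's quasi-likelihood test on the summed counts, 0 of 33 members passed a Benjamini-Hochberg adjusted p of 0.05, as did 0.0419% of all genes tested, and 0 had an unadjusted p below 0.05, against 2.35% of all genes. DESeq2 and limma-voom also called 0 members. Both ADAM libraries were above both AD libraries for 2 members (Ebp and Nr1h2), against 14.1% of all genes, and below them for 0, against 13.3%. In the genotype comparisons, CPM are TMM-scaled within the class or state, and log2 folds are ADAM over AD. The median log2 fold was -0.06 over the 33 members and 0.0035 over all genes. State 5 made up 27.2% and 37.4% of microglia in ADAM 1 and ADAM 2, against 37.1% and 23.3% in AD 1 and AD 2. Ch25h, for example, was at 21.6 and 38.2 CPM in ADAM and at 50.5 and 24.0 CPM in AD, and Soat1 at 115 and 149 CPM in ADAM and at 144 and 106 CPM in AD. In both genes, named after their values were seen, the genotypes overlapped and the libraries with the larger state 5 shares, ADAM 2 and AD 1, were the highest. The part of the state shares in these values was not tested.

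Within state 5, most sterol genes stood lower in ADAM than in AD, with the lowest folds in Hsd17b7, Idi1 and Fdps, but no single gene passed the test after adjustment. Of 32 members tested, 0 passed an adjusted p of 0.05 with edgeR, as did 0.153% of all genes, and DESeq2 and limma-voom called 0 as well. At an unadjusted p below 0.05, 9 members were lower in ADAM, against 2.81% of all genes, and 0 were higher, against 2.49%. Of the 32, 26 had a log2 fold below 0, against 49.8% of all genes, 19 had both ADAM libraries below both AD libraries, against 16.7%, and 2 (Pmvk, the phosphomevalonate kinase, and Nsdhl, a sterol dehydrogenase) had both above, against 16.9%. The median log2 fold of the members was -0.23, beside 0.00099 over all 10436 genes tested. The count of 9 was 3 with DESeq2, where 0.853% of all genes were lower at that level, 3 without AD 1 (1.64% of all genes), 4 without AD 2 (3.91%) and 5 without ADAM 1 (3.51%). The edgeR p-values rest on 2 libraries a genotype, and the variance behind each is partly borrowed from the other genes tested.

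Of the synthesis enzymes, 14 of 17 were lower in ADAM and 5 had an unadjusted p below 0.05. Idi1 was at 10.5 and 12.3 CPM in ADAM 1 and ADAM 2, against 15.6 and 19.2 CPM in AD 1 and AD 2, and the log2 fold was -0.62 with an SE of 0.19 (adjusted p 0.541, edgeR). Fdps, the farnesyl diphosphate synthase at the branch to sterols and protein prenylation, was at 30.4 and 21.1 CPM in ADAM, against 41.2 and 34.0 CPM in AD, and the log2 fold was -0.54 with an SE of 0.18 (adjusted p 0.562, edgeR). For both genes the ADAM libraries lay below the AD libraries, as they did for the next 3. Fdft1 was at 12.2 and 11.1 CPM in ADAM, against 17.9 and 14.7 CPM in AD, with a log2 fold of -0.47. Msmo1 was at 54.8 and 53.1 CPM in ADAM, against 62.7 and 66.4 CPM in AD, with a log2 fold of -0.26. Hsd17b7, the ketosteroid reductase of the same demethylation complex, was at 3.64 and 4.47 CPM in ADAM, against 6.65 and 6.93 CPM in AD, from 17 to 43 UMIs a library. Ebp, in contrast, was at 88.5 and 88.7 CPM in ADAM, against 77.5 and 90.6 CPM in AD, and overlapped. The other 11 enzymes had log2 folds between -0.37 and 0.23.

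Of the sensing genes, 4 of 5 had a log2 fold below 0. Insig1 was at 24.0 and 27.9 CPM in ADAM, against 43.7 and 30.5 CPM in AD (log2 fold -0.49, SE 0.18, edgeR adjusted p 0.702). Srebf2 was at 27.4 and 34.7 CPM in ADAM, against 40.4 and 37.9 CPM in AD (log2 fold -0.32, SE 0.15, edgeR adjusted p 0.910). Both had an unadjusted p below 0.05 and no overlap between genotypes, while Insig2 was at 33.4 and 40.2 CPM in ADAM, against 31.7 and 34.2 CPM in AD, and overlapped.

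Of the efflux genes, Ch25h was at 51.8 and 69.4 CPM in ADAM 1 and ADAM 2, against 96.7 and 74.3 CPM in AD 1 and AD 2 (log2 fold -0.48, SE 0.16, edgeR adjusted p 0.652). The exporters were closer between the genotypes. Abca1 was at 62.8 and 62.6 CPM in ADAM, against 64.5 and 77.1 CPM in AD (log2 fold -0.18), and Abcg1 at 51.8 and 57.7 CPM in ADAM, against 53.7 and 57.2 CPM in AD (log2 fold -0.02). The genotypes overlapped for Abcg1 and Nr1h2 but not for Abca1, and Nr1h3 was not tested, with 9, 4, 0 and 5 UMIs in ADAM 1, ADAM 2, AD 1 and AD 2. Ch25h lies on the reverse strand of chromosome 19 at 34473778 to 34475164 (GRCm38), where exons of Gm26902 overlap it on the other strand. Fdft1 and Cyp51 likewise overlap exons of Ctsb and Akap9 on the other strand, and no source used here says whether counting used the strand.

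Among the genes of lysosomal release and transfer, all 4 had a log2 fold below 0. Lipa was at 124 and 142 CPM in ADAM, against 165 and 170 CPM in AD (log2 fold -0.34, SE 0.11, edgeR adjusted p 0.564), without overlap and at an unadjusted p below 0.05. Npc2 was at 2127 and 2069 CPM in ADAM, against 2294 and 2225 CPM in AD (log2 fold -0.11). The storage genes overlapped, with Soat1 at 171 and 194 CPM in ADAM, against 200 and 191 CPM in AD, and Plin2 at 79.5 and 85.4 CPM in ADAM, against 85.7 and 74.97 CPM in AD.

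**Figure D4:**
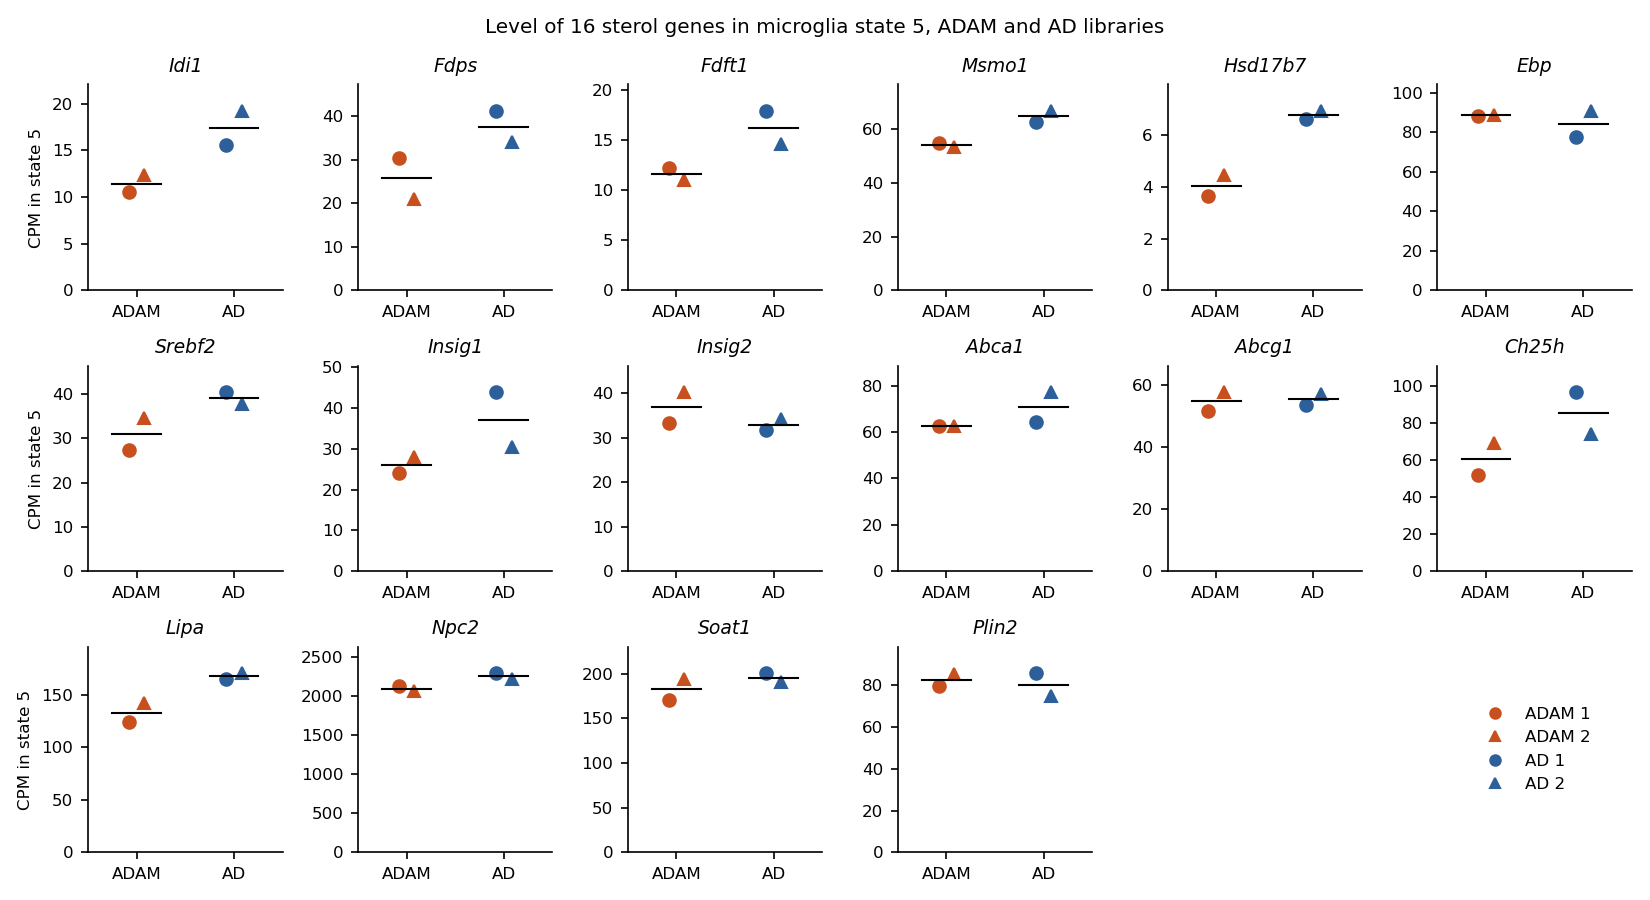
CPM in microglia state 5 (scaled within the state, linear axes from 0) of the 16 sterol genes whose values are given for every library, ADAM libraries left of AD libraries, with a line at the mean of each genotype. Idi1, Fdps, Fdft1, Msmo1, Hsd17b7, Insig1 and Ch25h have both ADAM libraries below both AD libraries, and Plin2, Soat1, Abcg1 and Ebp overlap.

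Synthesis against efflux and storage gave the following in state 5. The median log2 fold was -0.29 over 17 synthesis enzymes and -0.13 over 10 genes of efflux, release and storage. Both ADAM libraries were below both AD libraries for 11 of the 17 and 5 of the 10, against 16.7% of all genes. The 17 synthesis enzymes summed to 372 and 369 CPM in ADAM, against 412 and 421 CPM in AD, and the genotypes did not overlap. Efflux genes summed to 204 and 224 CPM in ADAM, against 246 and 246 CPM in AD, lysosomal genes to 2335 and 2309 CPM in ADAM, against 2568 and 2492 CPM in AD, and neither overlapped. Storage genes overlapped, at 250 and 280 CPM in ADAM and 286 and 266 CPM in AD. As log2 ratios of the sums, ADAM over AD, synthesis was at -0.17, efflux at -0.20, and efflux, release and storage without Npc2 at -0.17, so the sums did not order the roles as the medians did. The efflux sum includes Ch25h, which had a log2 fold of -0.48. Abca1, Abcg1 and Nr1h2, the other efflux genes tested, had -0.18, -0.02 and 0.05. No efflux sum without Ch25h was made, so the value of -0.20 does not describe the exporters alone. The difference between the roles was not tested.

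The following marker sums did not overlap between the genotypes in state 5. The disease-associated markers, 8 of 8 detected and Axl among them, summed to 17410 and 15561 CPM in ADAM, against 23254 and 17834 CPM in AD. The 10 dissociation genes, such as Fos and Jun, summed to 3387 and 4327 CPM in ADAM, against 2724 and 2551 CPM in AD. Their part in the sterol values was not tested. Oligodendrocyte markers, 8 of 8 detected, summed to 85.8 and 87.5 CPM in ADAM, against 101 and 90.1 CPM in AD, and neuron markers to 4.49 and 3.40 CPM in ADAM, against 10.4 and 4.85 CPM in AD. Proliferation genes summed to 30.4 and 32.2 CPM in ADAM, against 33.9 and 36.6 CPM in AD, and B cell markers to 188 and 179 CPM in ADAM, against 157 and 160 CPM in AD. Haemoglobin genes summed to 0.856 and 20.6 CPM in ADAM, against 0 and 0 CPM in AD. Their part was not tested either. Without ADAM 2, the library with neutrophil transcripts, 8 members were lower at an unadjusted p below 0.05, as were 4.42% of all genes in that fit.

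In state 0, 13 of 31 members had a log2 fold below 0, against 48.5% of all genes. With edgeR, 0 of the 31 passed an adjusted p of 0.05, as did 0.101% of all genes, and 0 had an unadjusted p below 0.05, against 4.22% of all genes; DESeq2 and limma-voom called 0. Both ADAM libraries were above both AD libraries for 6 members (Pmvk, Lss, Dhcr7, Srebf2, Npc2 and Soat1), against 16.4% of all genes, and below for Sc5d, against 16.1%. The median log2 fold was 0.03. Soat1 was at 83.5 and 97.1 CPM in ADAM, against 81.8 and 70.5 CPM in AD (log2 fold 0.25, SE 0.13), and Npc2 at 1156 and 1215 CPM in ADAM, against 948 and 1075 CPM in AD (log2 fold 0.23). The disease-associated markers summed to 2633 and 2422 CPM in ADAM state 0, against 2411 and 2288 CPM in AD state 0.

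The difference of the genotype effect between the states was fitted with library as a term and state by genotype as the interaction, over 11132 genes. Of 32 members, 0 passed an adjusted p of 0.05 with edgeR, as did 1.02% of all genes, and DESeq2 called 0. At an unadjusted p below 0.05, 9 members had a lower ADAM effect in state 5 than in state 0, against 5.16% of all genes, and 0 a higher one, against 3.72%. In all, 25 of 32 were below 0, against 51.5% of all genes, with a median of -0.24 on the log2 scale. The smallest p-values among the members belonged to Soat1 (log2 difference -0.36, SE 0.11, edgeR adjusted p 0.112) and Msmo1 (-0.46, SE 0.15, edgeR adjusted p 0.147), followed by Fdps (-0.53, edgeR adjusted p 0.290). For Soat1 the fold of ADAM over AD was -0.10 in state 5 and 0.25 in state 0, and for Npc2 it was -0.11 in state 5 and 0.23 in state 0. The count of 9 was 1 with DESeq2, where 1.16% of all genes were below 0 at that level, 2 without AD 2 (5.07% of all genes) and 5 without AD 1 (3.54%).

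**Figure D5:**
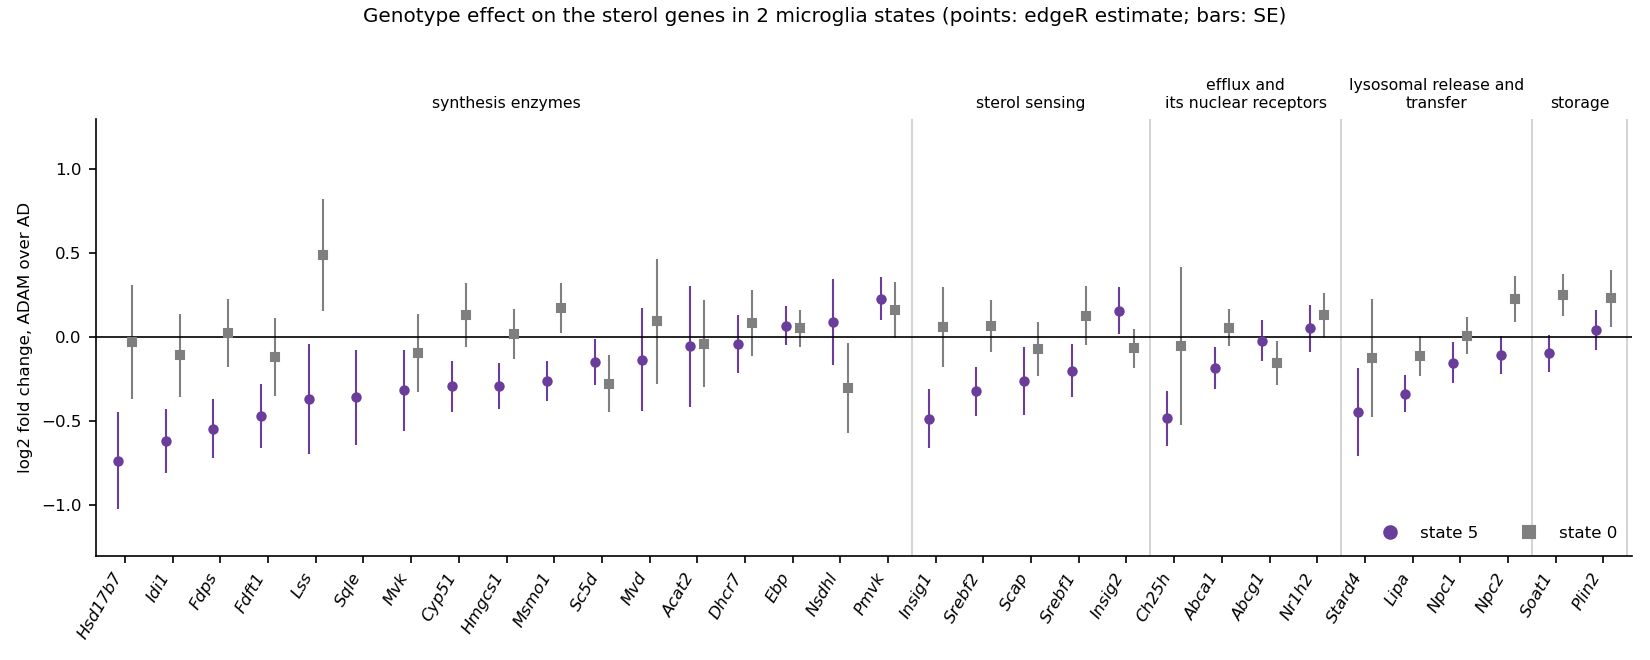
Log2 fold of ADAM over AD for each sterol gene tested in microglia state 5 (purple) and in state 0 (grey), with bars of 1 standard error from edgeR, genes grouped by role. In state 5, 26 of 32 genes lie below 0, with a median of -0.23, and in state 0 the median is 0.03.

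The promoters of the genes at an unadjusted p below 0.05 in state 5 were read from RefSeq (GRCm38.p6), which supplied 27 of the 33 members as 250 bases before to 50 bases after the gene start. Searched on both strands were a sterol regulatory element, TCACNCCAC, the core that SREBP proteins bind, the box CCAAT, bound by NF-Y, a frequent partner of SREBP proteins, and a liver X receptor direct repeat, GGTCA, any 4 bases and AGGTCA. Fdps and Fdft1, also at an unadjusted p below 0.05 in state 5, were not among the 27 members and were not searched. The windows below show a match for the other genes at that level that had one, and for Hmgcs1, the single member with the sterol element. They are written 5′ to 3′ on the strand of the gene, with the motif or its reverse complement in capitals.
Hmgcs1, chr13:119690204-119690233, + strand: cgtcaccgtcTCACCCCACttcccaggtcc
Idi1, chr13:8885576-8885605, + strand: catggtccaaggtgccATTGGctggcgacc
Msmo1, chr8:64733616-64733645, - strand: gagtggggcggaCCAATtacgacaggcgag
Hsd17b7, chr1:169969206-169969235, - strand: gagccgggccgagccttgATTGGtcgaggt
Insig1, chr5:28071184-28071213, + strand: cgccctcctcccATTGGctccggcggcctc
Srebf2, chr15:82147122-82147151, + strand: cttcgcgcgccgATTGGctaatgcaagcct
Lipa, chr19:34527483-34527512, - strand: tggactgccctgATTGGctgtgtgaaagtc

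Counted from the gene start that RefSeq gives, the matches end 128 bases before it in Hmgcs1, 9 in Idi1, 50 in Msmo1, 7 in Hsd17b7, 211 in Insig1, 130 in Srebf2 and 21 in Lipa. In the GENCODE annotation, which gave the gene positions, genes start elsewhere, and the windows of Idi1, Msmo1 and Hsd17b7 lie inside the gene. The CCAAT box was in 21 of 27 members (77.8%), against 41.1% of the 27025 genes of the promoter table. It was in 13 of 14 synthesis enzymes (92.9%), in 4 of 5 sensing genes (80.0%) and in 4 of 8 genes of efflux, release and storage. Those 4 were Lipa, Npc2, Soat1 and Plin2, and Ch25h had none. The sterol element was in 1 of 27 members (3.7%), against 1.44% of all genes, and the direct repeat in 0 of 27, against 0.0222%. No test was made, the motifs do not overlap each other in these windows, and a match is only a match of letters.

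In the other states and classes, 0 members passed an adjusted p of 0.05 with edgeR and 0 with limma-voom. Of all genes, 0.0635% passed it in state 2, 0.313% in state 3, 0.127% in state 4 and 0.0154% in macrophages. In T and NK cells, 31 members were tested; the share of all genes passing the adjusted test was 0.241%, and 2 members had an unadjusted p below 0.05, against 5.20% of all genes. These were Fdps, at 14.7 and 13.9 CPM in ADAM, against 27.1 and 15.9 CPM in AD, and Mvk, the mevalonate kinase, at 4.76 and 1.87 CPM in ADAM, against 6.47 and 6.69 CPM in AD. In both, the ADAM libraries lay below the AD libraries. In T and NK cells, 23 of 31 members had a log2 fold below 0, against 51.1% of all genes, and 9 had both ADAM libraries below both AD libraries, against 16.5%. In state 2, 1 of 9 members had an unadjusted p below 0.05, against 3.05% of all genes: Abcg1, at 82.5 and 75.2 CPM in ADAM, against 133 and 181 CPM in AD. All 9 had a log2 fold below 0, against 48.9% of all genes, and 4 had both ADAM libraries below both AD libraries, against 15.0%. The haemoglobin genes of ADAM 2 and choroid plexus markers of AD 1 given above lie in these sums. Without ADAM 2, 0 members of state 2 had an unadjusted p below 0.05 in either direction, as also without ADAM 1 and with DESeq2, and without AD 1, 3 were lower. In state 4, 1 of 12 members had such a p, against 3.35% of all genes: Ch25h, at 101 and 73.6 CPM in ADAM, against 71.3 and 38.5 CPM in AD, the opposite direction to state 5, a difference that was not tested. In macrophages (21 members tested, 2.21% of all genes below 0.05) and state 3 (8 tested, 4.95%), 0 members had an unadjusted p below 0.05.

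In monocytes, where 0.155% of all genes passed the adjusted test and 8.51% had an unadjusted p below 0.05, 2 of 24 members had such a p. Npc2 was at 663 and 735 CPM in ADAM, against 1490 and 1261 CPM in AD (log2 fold -0.98, SE 0.18, edgeR adjusted p 0.115), the smallest adjusted p of any member in any class or state. Nr1h3 was at 83.7 and 25.8 CPM in ADAM, against 14.2 and 6.74 CPM in AD (log2 fold 2.35, edgeR adjusted p 0.506). Neither gene's genotypes overlapped. Neutrophil markers in the same monocytes, however, summed to 4526 and 73581 CPM in ADAM, against 158 and 2143 CPM in AD, and monocyte markers to 5203 and 10667 CPM in ADAM, against 12931 and 11385 CPM in AD, and their part in these values was not tested. Npc2 and Nr1h3 passed the adjusted test in monocytes without the filter on low counts, where 276 of all 13005 genes did. With limma-voom, 0 of 6460 genes passed it.

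In proliferating cells, 24 members were tested; 0.0842% of all genes passed the adjusted test and 8.73% had an unadjusted p below 0.05, as 3 members did. Of the 24, 17 had a log2 fold below 0, against 47.9% of all genes, among them 12 of 12 synthesis enzymes tested, and 7 had both ADAM libraries below both AD libraries, against 20.1%. Plin2 was at 280 and 72.1 CPM in ADAM, against 17.2 and 37.1 CPM in AD (log2 fold 2.62, edgeR adjusted p 0.322), Cyp51 at 18.0 and 18.6 CPM in ADAM, against 24.1 and 162 CPM in AD, and Fdft1 at 5.52 and 16.3 CPM in ADAM, against 20.6 and 39.1 CPM in AD. The genotypes did not overlap in these genes, but ADAM 1 sets the Plin2 value and AD 2 the Cyp51 value. T and NK markers summed to 1385 and 942 CPM in ADAM, against 6092 and 2906 CPM in AD, in these 38 to 63 cells a library, and neutrophil markers to 116 and 19334 CPM in ADAM, against 13.7 and 190 CPM in AD; their part was not tested. Plin2 passed the adjusted test with DESeq2, which called 67 of all 7124 genes tested, against 6 with edgeR.

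Genes of 4 neighbouring pathways were counted in state 5 in the same fit. Over all genes, 49.8% had a log2 fold below 0, 2.81% were lower and 2.49% higher at an unadjusted p below 0.05. Of 26 tested other sterol pathway genes, 20 had a log2 fold below 0 and 3 were lower at that level. Of 9 tested fatty acid synthesis genes, 8 were below 0 and 2 lower at that level, and Scd2, a stearoyl-CoA desaturase, was at 118 and 118 CPM in ADAM, against 166 and 151 CPM in AD (log2 fold -0.43, edgeR adjusted p 0.226). Of 9 tested other liver X receptor targets, 7 were below 0 and 2 lower. Lpl, the lipoprotein lipase, was at 660 and 899 CPM in ADAM state 5, against 1122 and 1123 CPM in AD state 5 (log2 fold -0.53, edgeR adjusted p 0.297). Of 12 tested lipid droplet genes, 6 were below 0, 0 were lower and 1 was higher at that level, Acsl3, an acyl-CoA synthetase, at 6.64 and 2.86 CPM in ADAM, against 1.28 and 2.58 CPM in AD. Of these genes over the 10 classes and states tested, 1 passed the adjusted test: Lpl fell in state 3, at 91.5 and 186 CPM in ADAM, against 321 and 519 CPM in AD (log2 fold -1.63, SE 0.30, edgeR adjusted p 0.018), where limma-voom gave an adjusted p of 0.123.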

How the data were processed

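One deposited table gives raw UMI counts per gene and cell, with no normalization by the authors, and a second gives each cell's library, class, microglia state and doublet marks. The percent of mitochondrial UMIs per cell was also deposited by the authors and was not used in a test. Per the submitters' processing notes, mm10, Seurat 3.2.1.9002 and Cell Ranger 3.1.0 were used, with no step named. No source used here gives the cell filters, how classes were assigned or the use of strand, and every cell had 500 UMIs or more. The 823 cells marked as doublets carry no class and the 216 marked as microglia and T cell doublets carry no state, so both were left out of the states.

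Counts were summed per library over each class and state. The 10 sets of 20 or more cells in all 4 libraries were compared between genotypes with edgeR 4.0.16 (limma 3.58.1, R 4.3.3): TMM scaling, the expression filter with a minimum count of 10, a robust quasi-likelihood fit with genotype as its term, and Benjamini-Hochberg adjustment over all genes tested. SE came from the fold and the F statistic. The tests were checked on simulated data. Of genes given a 1.5-fold change, 34.3% were recovered in state 5, 29.85% in microglia and in state 0, and 17.9% in T and NK cells. At 2-fold, 76.1% were recovered in state 5. The interaction was simulated with a fixed spread between libraries, not one estimated from these data, and with no library effect shared by the states. In that setting, 2.99% were recovered at 1.5-fold and 25.4% at 2-fold. A count of 0 members past the adjusted test therefore does not exclude changes of these sizes. Levels across sets used 1 joint TMM scaling of all sums with at least 20 cells. Alternatives were DESeq2 1.42.0, limma-voom, size factors by relative log expression, no filter, cells of at least 2000 UMIs, a replicate block and leaving out each library. Deviations of same-numbered libraries from their genotype means correlated between -0.22 in microglia and 0.096 in state 0, so the numbers were not taken as pairs.

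The members and the other lists were chosen with earlier results of these data known. Values in every library are given for members past the adjusted test in any set, members at an unadjusted p below 0.05 in all microglia, state 0 or state 5, and the 2 members of each role with the highest mean CPM in microglia. Other members, and the values given across states, were picked as examples after their values were seen. Of the other lists, the members with the smallest p in state 5 were eligible, and 1 of them is not reported here. Counts cover 3′ molecules, and intervals were not computed beyond the SE.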

Additional observations from a re-analysis of the deposited data

Results flagged for a closer look

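Apoe and Apoc1, apolipoprotein genes that liver X receptors induce, differed in their genotype effect between state 5 and state 0 by the interaction test. For Apoe the log2 difference was -1.001 (edgeR adjusted p 0.0031). Apoe was at 28764 and 38402 CPM in ADAM state 5, against 37321 and 41500 CPM in AD state 5, and at 3601 and 9503 CPM in ADAM state 0, against 3127 and 3845 CPM in AD state 0. The high state 0 value was that of ADAM 2 alone. For Apoc1 the log2 difference was -2.38 (edgeR adjusted p 0.000488). Apoc1 was at 4.71 and 8.04 CPM in ADAM state 5, against 15.6 and 15.2 CPM in AD state 5, and had 7 and 26 UMIs in ADAM state 0, against 2 and 20 UMIs in AD state 0. Without ADAM 2 the differences were -0.51 (adjusted p 0.699) for Apoe and -1.22 (adjusted p 0.769) for Apoc1, DESeq2 did not call Apoe and gave no adjusted p for Apoc1, and limma-voom gave adjusted p-values of 0.717 for Apoe and 0.00193 for Apoc1. Within state 5, Apoc1 had a log2 fold of -1.24 (edgeR adjusted p 0.0667). Both genes lie 6.06 Mb from Axl on chromosome 7 (GRCm38). Whether linked sequence around the Axl deletion bears on them was not tested. Among the 33 sterol genes, Nr1h2 lies 18.8 Mb from Axl, and no other lies within 20 Mb of Axl or Mertk.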

How the results depend on the processing

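In state 5 the count of members past an adjusted p of 0.05 with edgeR was 0, beside 16 of all 10436 genes tested. It was 2 without the filter on low counts (Fdps and Ch25h), beside 112 of 15032 genes. The members called also varied when 1 library was left out, which left 1 library in a genotype. The count lower at an unadjusted p below 0.05 was 9, and it was 3 with DESeq2 and 3 to 8 when 1 library was left out. The corresponding interaction count of 9 was 1 with DESeq2 and 2 to 6 without 1 library, and the count past the adjusted p was 0 to 1. In all microglia and in state 0 the lower count was 0 to 1 without 1 library. Monocytes gave 2 called members without the filter, beside 276 of all 13005 genes. Proliferating cells gave 3 without the filter, beside 340 of 13802 genes, and 1 with DESeq2, beside 67 of 7124 genes. In these classes and in state 4, the members called varied when 1 library was left out. Without TMM, log2 genotype differences of state 0 sums were -0.0533 for synthesis, -0.0835 for sensing, -0.0672 for efflux, 0.105 for lysosomal genes, 0.0756 for efflux, release and storage and -0.0513 for these without Npc2, against 0.03, -0.00036, 0.02, 0.19, 0.16 and 0.03 with TMM. Log2 sums of state 5 over state 0 without TMM were 0.62, 0.29, -0.46, 0.91, 1.39 (storage), 0.78 and 0.29 in that order. In state 5, leaving out 1 library gave log2 folds of -0.103 to 0.0541 for Abcg1 (0.0308 without AD 2), -0.0542 to 0.137 for Plin2 (-0.0088 without ADAM 2) and -0.0344 to 0.193 for Ebp. The cause was not tested. With the replicate block, 9 members were lower in state 5 at an unadjusted p below 0.05 and 0 passed the adjusted test in any set, and the block crossed between the numbers, chosen after seeing the data, gave 0 in microglia and macrophages. State 2 had too few cells of at least 2000 UMIs to be fitted. Over single genes, 440 values kept direction and side of the threshold, 28 became past it, 6 lost it and 5 reversed direction. Of the counts, medians and sums, 214 stayed near the main value and 37 moved. Nr1h3, with 0 to 9 UMIs a library in state 5, could not be tested there at this depth.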
